A study of Mus musculus with 12 samples.

Results

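Integrins and other cell adhesion molecules hold cells to each other and to the matrix around them. In a 770-gene immune panel measured on mouse hepatocellular carcinoma, 38 genes of this kind were followed: every gene whose name begins with Itga, Itgb, Icam or Sel, and 18 further adhesion receptors (Vcam1, Jam3, Alcam, Mcam, Ncam1, Amica1, Ceacam1, Nrp1, Cd44, Cd34, Cd9, Cd63, Cd81, Cd164, Cd47, Cd97, Cd99 and Spn). They were chosen by name, not by level. Of the 38, 35 averaged 20 counts or more and were tested, among 635 tested genes in all. By the cells best known to carry them, 11 of the tested genes were grouped as leukocyte adhesion genes, 9 as endothelial, platelet and stromal, 7 as epithelial, tumour and neural, and 8 as broadly expressed. The grouping is from general knowledge; in whole tumour RNA each gene can come from several cell types.

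RNA came from formalin-fixed, paraffin-embedded primary tumours, 3 samples in each of 4 groups. The control group had received an isotype antibody, which has the frame of a therapeutic antibody without its target. A second group had received dual immune checkpoint blockade (dICB in the labels), anti-PD-1 with anti-CTLA4, antibodies that release brakes on T cells. The other groups had received the same antibodies together with Dexa at 10 mg or at 200 mg. The labels do not spell Dexa out, although the series title speaks of corticosteroid premedication; they state neither body weight nor schedule, and no group had Dexa alone, so its effect was measured only on top of dICB. Of the mice, the strain, age and sex and the tumour model were not given in the sources used here, nor whether each sample came from its own animal, so that a p-value reflects only how these samples vary, which may be technical in part.

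An integrin is a pair of an alpha and a beta chain. On leukocytes the shared beta chain Itgb2 pairs with Itgal, Itgam or Itgax, and these pairs bind intercellular adhesion molecules such as Icam1 on vessel walls and other cells. Before that firm grip, selectins slow the passing cell by binding sugar-bearing ligands such as Selplg. In epithelia and tumours, chains such as Itga6, Itgb4 and Itga2, and Itgb1 with many alpha partners, anchor cells to laminin and collagen.

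Itgam and Itgax, alpha chains of myeloid cells, lie next to each other on mouse chromosome 7 (GRCm38.p6, 128062640 to 128118491 and 128129526 to 128150657), with Itgal at 127296139 to 127335137. The stretch of up to 250 bases before each of the first 2 genes (226 for Itgax, cut where its gene record begins) is shown because Itgam gave the highest fold change among the genes called below and Itgax is its neighbour. Both are on the plus strand, from RefSeq on GRCm38.p6, and capitals mark GAGGAA or, on the opposite strand, TTCCTC, a core bound by the myeloid factor PU.1, which in human cells is known to act on the alpha M promoter.
Itgam, chr7:128062390-128062639: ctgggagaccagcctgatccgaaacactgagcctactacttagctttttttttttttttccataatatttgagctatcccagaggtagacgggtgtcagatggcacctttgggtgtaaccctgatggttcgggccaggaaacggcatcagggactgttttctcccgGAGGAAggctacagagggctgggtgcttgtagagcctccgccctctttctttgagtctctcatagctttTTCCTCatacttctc
Itgax, chr7:128129300-128129525: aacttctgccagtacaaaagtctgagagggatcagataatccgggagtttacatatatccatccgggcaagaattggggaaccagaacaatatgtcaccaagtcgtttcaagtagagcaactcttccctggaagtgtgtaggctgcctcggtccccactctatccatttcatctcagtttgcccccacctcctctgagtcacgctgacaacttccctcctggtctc
The Itgam window held 2 matches, which began 84 and 15 bases before the start site, and the Itgax window held 0. The letters alone say little: of all 32851 windows of this length, 7639 (23.25%) held at least 1 match. Counted by gene, a window was found for 24 of the 38 genes, and 11 of these 24 had a match. In the leukocyte class 1 of the 5 genes with a window had a match. A match describes letters and is no evidence that the factor is bound.

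Each sample held between 252994 and 428944 counts in all, and the background limit of a sample (mean of its negative controls plus 2 SD) from 18.1 to 38.1 counts. Values below are normalised counts, scaled to a common library of 359608. Markers of several cell types were present: of 7 macrophage and monocyte markers 5 lay above the limit in all 12 samples, as did 6 of 8 endothelial, 6 of 6 fibroblast and matrix and 2 of 3 epithelial markers. Of 7 hepatocyte markers on the panel, C9, Mbl2, Masp2, C8a and C8b never exceeded the limit, so the hepatocellular label could not be checked on those genes. Apoe, another of the 7, measured 12055 to 37918 normalised counts and alone lay above the limit in all 12 samples. Masp1 measured 21.4 to 66.1. Replicate 1 of dICB stood apart, with summed neutrophil markers of 18166 normalised counts against 302 to 683 in the other 11 samples, although Camp, Ltf and Mpo were never above the limit. Replicate 2 of dICB with Dexa 10 mg also stood apart. A code in the sample descriptions, ICI7 or ICI10, whose meaning is not stated, ran with the groups: ICI7 stood on every isotype sample and ICI10 on every sample of dICB alone. In the 10 mg group 2 samples carried ICI7 and 1 carried ICI10, and in the 200 mg group 1 carried ICI7 and 2 carried ICI10. For dICB against isotype, code and treatment cannot be told apart.

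The clearest differences lay between the isotype samples and dICB with Dexa 200 mg. There 6 of the 35 tested adhesion genes passed an adjusted p of 0.05 (edgeR quasi-likelihood test, Benjamini-Hochberg over 635 genes), or 17.1%, near the 13.2% of all tested genes. The integrin chains of phagocytes, Itgam and Itgb2, rose, while Mcam, Itgb1, Cd44 and Itga6 fell. When libraries were scaled on 20 housekeeping genes instead, the median of all genes moved from 0.03 to 0.55 on the log2 scale. The calls among adhesion genes became 7 higher and 0 lower, beside 161 higher and 5 lower among all 635 tested genes. Mcam, Itgb1, Cd44 and Itga6 were still lower in value but not called. By the TMM scaling used elsewhere, 19 of the 20 housekeeping genes were themselves lower with Dexa 200 mg, with a median log2 difference of -0.56. Without 1 of the 6 samples compared, the count ran from 0 to 6: it was 0 without Dexa 200 mg replicate 2, replicate 3 or isotype replicate 3, and 1 without Dexa 200 mg replicate 1 or isotype replicate 2.

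Itgam, the alpha M chain of neutrophils, monocytes and macrophages, measured 146, 109 and 95.3 normalised counts in the isotype samples, 537, 207 and 168 with dICB, 188, 219.7 and 149 with dICB and Dexa 10 mg, and 302, 244 and 374 with dICB and Dexa 200 mg. All isotype samples lay below all 9 treated samples, by a narrow margin: isotype replicate 1 was at 146 and Dexa 10 mg replicate 3 at 149. From 117 ± 26.4 (SD, n = 3) in isotype it rose to 307 ± 65.2 (SD, n = 3) with Dexa 200 mg, a 2.62-fold difference (log2 1.39 ± 0.39 SE, edgeR adjusted p = 0.0353).

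Itgb2, the beta chain that Itgam needs to reach the cell surface, measured 421, 236 and 225 in isotype, 428, 677 and 301 with dICB, 577, 587 and 402 with Dexa 10 mg, and 557, 697 and 647 with Dexa 200 mg. The isotype and Dexa 200 mg samples did not overlap, while isotype replicate 1 reached the range of the other groups. Itgb2 rose 2.15-fold between isotype and Dexa 200 mg (log2 1.11 ± 0.32 SE, edgeR adjusted p = 0.0371), from 294 ± 110.2 to 634 ± 71.0 (SD, n = 3 each).

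Other leukocyte genes lay the same way without passing the test. Itgax, the alpha X chain of dendritic cells and macrophages, measured 105, 96.5 and 98.6 in isotype, 106, 172 and 109 with dICB, 158, 195 and 154 with Dexa 10 mg, and 165, 248 and 135 with Dexa 200 mg, so that all 9 treated samples exceeded all 3 isotype samples, by a narrow margin in 2 of the dICB samples. Its log2 difference for Dexa 200 mg against isotype was 0.87 ± 0.27 SE (edgeR adjusted p = 0.0512), and 0.57 without Dexa 200 mg replicate 2. Selplg, the selectin ligand of leukocytes, measured 337, 221 and 194 in isotype and 360, 390.3 and 444 with Dexa 200 mg (log2 0.67 ± 0.24 SE, edgeR adjusted p = 0.0796), with 394, 435 and 286 under dICB and 342, 328 and 286 under Dexa 10 mg.

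Itgal, the alpha L chain of lymphocytes, measured 207, 164 and 161 in isotype and 236, 237 and 324 with Dexa 200 mg, which do not overlap (log2 0.58 ± 0.40 SE, edgeR adjusted p = 0.346). Its lowest value, 68.9, was in Dexa 10 mg replicate 2.

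**Figure D1:**
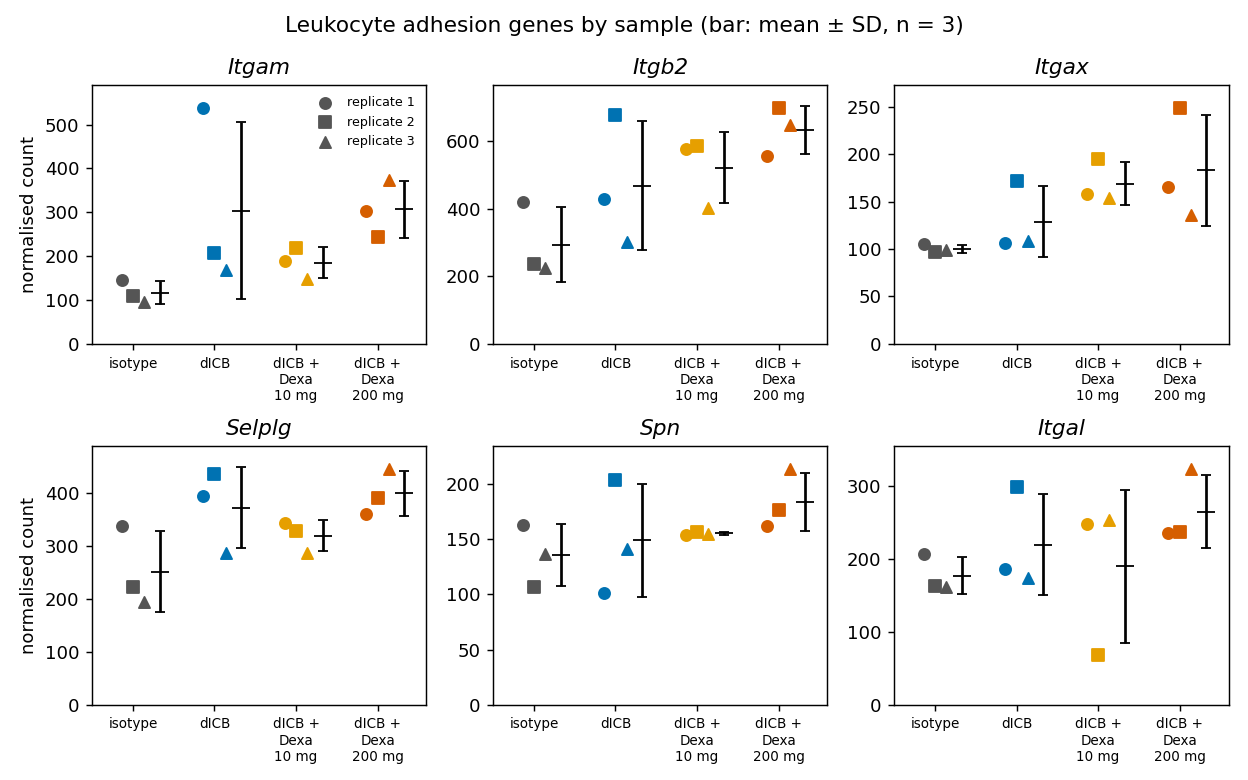
Normalised counts (vertical axis, from 0) of 6 leukocyte adhesion genes in each sample of the 4 groups (horizontal axis); symbols mark replicates and bars mean ± SD (n = 3). Itgam and Itgax in isotype lie below every treated sample, and dICB replicate 1 stands out for Itgam (537).

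In the leukocyte class as a whole, 8 of 11 genes were higher in value with Dexa 200 mg than in isotype (51.7% of all tested genes were) and 2 of 11 were called, both higher. The class median was a log2 difference of 0.58 against 0.03 over all tested genes. Under housekeeping scaling 11 of 11 were higher, and 8 of 11 relative to the shifted median of all genes. The 3 that were lower were Itga4, the alpha 4 chain that binds Vcam1 (log2 -0.16), Itgae, the alpha E chain of intraepithelial T cells (-0.17), and Cd97, an adhesion G protein-coupled receptor (-0.23); none of the 3 was called. Spn, the leukocyte sialoglycoprotein CD43, had a log2 difference of 0.44 ± 0.26 SE and Amica1, a junctional adhesion molecule-like protein of leukocytes now named Jaml, 0.35 ± 0.23 SE.

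Macrophage and monocyte markers were higher in value with Dexa 200 mg than in isotype for 7 of 7 genes, and 2 of them were called. Of all tested genes 51.7% were higher in value and 13.2% were called. The 7 macrophage and monocyte markers summed to 1082 to 1748 normalised counts in isotype, 1662 to 2657 with dICB, 1380.3 to 1878 with Dexa 10 mg and 2084 to 2453 with Dexa 200 mg. The dICB maximum was that of replicate 1, where Cd14 alone measured 1009.9, against 86.3 and 92.3 in the other dICB samples. The 4 pan-leukocyte markers on the panel summed to 798 to 1065 in isotype and 1089 to 1411 with Dexa 200 mg, with 4 of 4 higher in value and 0 called. The 7 T cell markers summed to 643 to 844 in isotype, 484 to 1055 with dICB, 534 to 778 with Dexa 10 mg and 655 to 1136 with Dexa 200 mg, so that the groups overlapped, and 0 of 7 reached an unadjusted p under 0.05 for Dexa 200 mg against isotype. The part of these markers in the result was not tested. In such bulk samples, more or fewer cells of a type and more or less RNA per cell cannot be told apart.

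Mcam, an immunoglobulin-type adhesion molecule of vessel walls and pericytes, at 44134658 to 44142727 on chromosome 9, fell to 0.500 of its isotype level with Dexa 200 mg (log2 -1.001 ± 0.24 SE, edgeR adjusted p = 0.0188). It measured 739.5, 406 and 479.8 in isotype, 332, 310.3 and 350.0 with dICB, 301, 318 and 408 with Dexa 10 mg, and 230.1, 278 and 305 with Dexa 200 mg. Only Dexa 10 mg replicate 3 among the treated samples reached the lowest isotype value. Isotype replicate 1 was far above its group, and without it the log2 difference was -0.71. That sample also held the highest summed fibroblast and matrix markers of its group, 12545 against a group minimum of 4240.5, and these ran from 4817 to 13209 with Dexa 200 mg; their part in the result was not tested. Endothelial markers summed to 611 to 837 in isotype and 885 to 1034 with Dexa 200 mg. Most of the higher sum came from 1 marker, Cd36, at 190, 141 and 103 in isotype and 501, 435 and 328 with Dexa 200 mg. Kdr went the other way without overlap, at 61.9, 54.5 and 57.2 in isotype and 44.3, 25.4 and 53.9 with Dexa 200 mg. Of the 8 markers 5 were higher and 3 lower in value, 0 were called, and the median log2 difference was 0.06; their part in the result was not tested.

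The other 8 tested genes of the endothelial, platelet and stromal class gave no call. Of all 9, 4 were higher and 5 lower (8 and 1 under housekeeping scaling), with a median log2 difference of -0.07. Vcam1, the endothelial ligand of alpha 4 integrins, kept within 203 to 310.0 normalised counts over all 12 samples (log2 0.09 ± 0.20 SE for Dexa 200 mg against isotype). Itga5, the fibronectin receptor chain, measured 125, 113 and 113 in isotype and 131, 142 and 148 with Dexa 200 mg, without overlap but with a small difference (log2 0.26 ± 0.26 SE). Nrp1, a co-receptor for vascular growth factor and semaphorins, measured 311 ± 53.4 in isotype and 254 ± 26.7 with Dexa 200 mg (SD, n = 3 each). Cd34, a sialomucin of endothelium and progenitors, measured 103 ± 32.8 and 127 ± 41.5, and Itga1, a collagen receptor chain, 346 ± 110.2 and 295 ± 50.6. Icam2 of resting endothelium measured 80.9 ± 8.7 and 66.9 ± 13.2, and Itgb3, the beta chain of platelets and activated endothelium, 90.3 ± 20.8 and 86.2 ± 22.3.

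Of the genes that tie epithelial and tumour cells to matrix, Itga6 passed the test with Dexa 200 mg. Itga6, the laminin-binding alpha chain, fell to 0.598 of its isotype level (log2 -0.74 ± 0.22 SE, edgeR adjusted p = 0.0397). It measured 1506, 1976 and 2113 in isotype, 1350.4, 1356 and 2015 with dICB, 1313, 1538 and 1808 with Dexa 10 mg, and 1159, 1264 and 926 with Dexa 200 mg, so that the 200 mg samples lay below all 9 others. Its laminin-binding partner of hemidesmosomes, Itgb4, measured 168, 222 and 213 in isotype and 128, 144 and 81.5 with Dexa 200 mg (log2 -0.77 ± 0.28 SE, edgeR adjusted p = 0.0825). Under dICB it measured 155, 142 and 225, and under Dexa 10 mg 156, 114 and 182.

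Itga2, a collagen-binding alpha chain, measured 417, 572 and 503 in isotype, 373, 251 and 609 with dICB, 451, 415 and 561 with Dexa 10 mg, and 353, 292 and 291 with Dexa 200 mg (log2 -0.67 ± 0.28 SE against isotype, edgeR adjusted p = 0.125). Alcam, a ligand of Cd6, measured 603, 796 and 822 in isotype and 579, 578 and 419 with Dexa 200 mg, without overlap (log2 -0.49 ± 0.27 SE, edgeR adjusted p = 0.213). The dICB replicates 1 and 2 lay at 587 and 559.6 and replicate 3 at 1175.

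All 7 genes of the epithelial, tumour and neural class were lower in value with Dexa 200 mg than in isotype, with 1 called and a median log2 difference of -0.49, although under housekeeping scaling 4 were higher and 3 lower, and 7 were lower relative to the shifted median. Against them, 48.3% of all tested genes were lower. Of the 7, Ncam1 and Ceacam1 exceeded the background limit in only 5 and 1 of 12 samples, so that their direction is uncertain. The summed epithelial markers, of which 3 were on the panel, ran from 602 to 755 in isotype, 336 to 619.55 with dICB, 496 to 750.4 with Dexa 10 mg and 362 to 387 with Dexa 200 mg. Their part in the result was not tested.

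Among broadly expressed genes, Itgb1, the beta chain with the most partners, fell to 0.648 of its isotype level with Dexa 200 mg (log2 -0.62 ± 0.15 SE, edgeR adjusted p = 0.0205). It measured 3713, 3848 and 3575 in isotype, 2607, 2642 and 3044 with dICB, 2997, 3488 and 3465 with Dexa 10 mg, and 2595, 2385 and 2239 with Dexa 200 mg. The isotype samples lay above all 9 treated samples and the 200 mg samples below all 9 others. The latter margin was narrow, with Dexa 200 mg replicate 1 at 2595 and dICB replicate 1 at 2607.

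Cd44, the receptor for hyaluronan, fell to 0.555 of its isotype level (log2 -0.85 ± 0.25 SE, edgeR adjusted p = 0.0383). It measured 36.6, 44.1 and 32.5 in isotype, 26.7, 20.4 and 28.3 with dICB, 26.6, 38.2 and 35.7 with Dexa 10 mg, and 20.4, 26.8 and 16.1 with Dexa 200 mg. Its probe exceeded the background limit in 6 of 12 samples. With Dexa 200 mg its raw counts were 24, 19 and 14, against negative control means of 20, 11.1 and 16.1, so that its fold change and level are uncertain. Cd81, a tetraspanin that organises receptors in the membrane, measured 3304, 4177 and 3729.6 in isotype, 2199.9, 2270.0 and 4057 with dICB, 2846, 3854.5 and 3526 with Dexa 10 mg, and 2525.5, 2502 and 1940 with Dexa 200 mg (log2 -0.69 ± 0.24 SE against isotype, edgeR adjusted p = 0.0788). The dICB group was split, with replicate 3 among the isotype values.

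**Figure D2:**
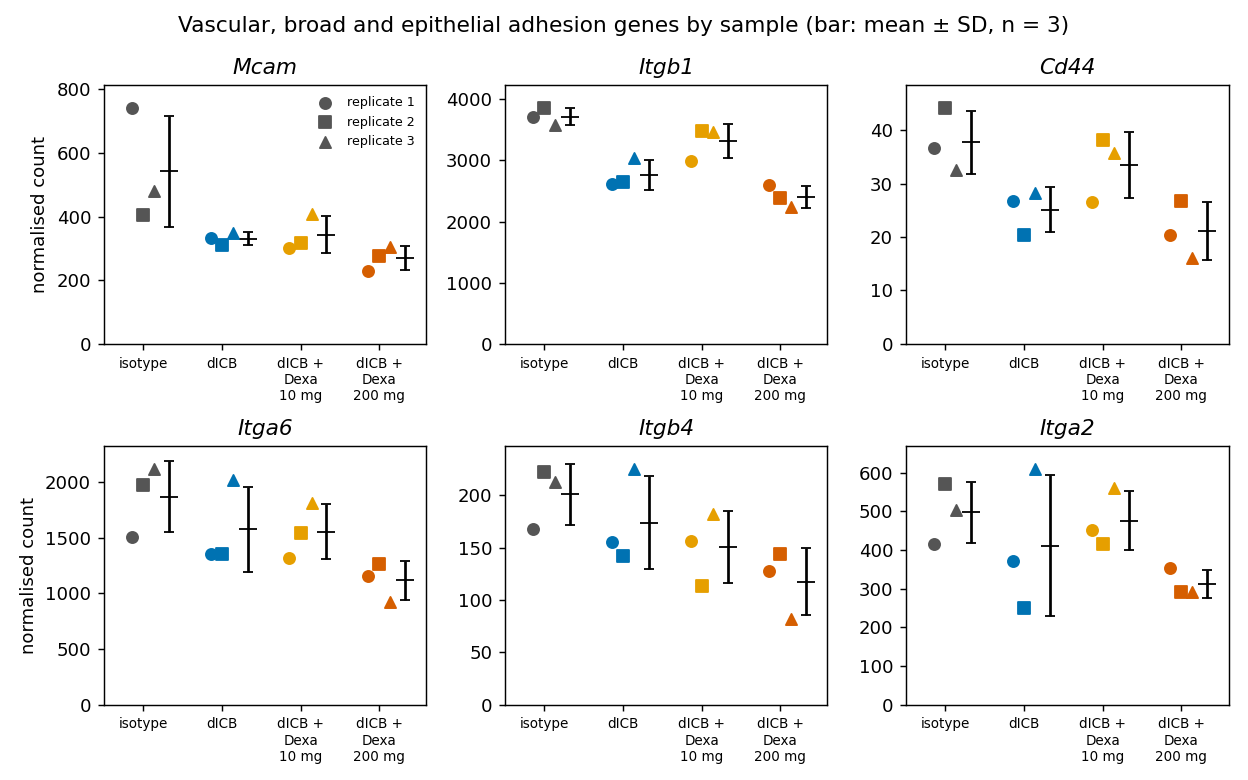
Normalised counts (vertical axis, from 0) of Mcam, Itgb1, Cd44, Itga6, Itgb4 and Itga2 in each sample of the 4 groups (horizontal axis); symbols mark replicates and bars mean ± SD (n = 3). Itga6 and Itgb1 are lowest in the 3 samples given Dexa 200 mg, and isotype replicate 1 stands out for Mcam (739.5).

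Between isotype and Dexa 200 mg the 2 sets of samples did not overlap for 18 of 35 adhesion genes (51.4%), 8 higher and 10 lower, against 44.6% of all tested genes. Among the others, Cd47, the signal that restrains phagocytes, was higher without overlap by a small margin (log2 0.19 ± 0.17 SE), and Cd63, a tetraspanin of late endosomes, lower (log2 -0.33 ± 0.21 SE). An unadjusted p under 0.05 was reached by 31.4% of the adhesion genes and 32.3% of all tested genes. Within the samples coded ICI7, where 1 sample of the 200 mg group faced all 3 isotype samples, Itgam differed by a log2 of 1.65, Itgb2 by 1.11, Mcam by -0.85, Itgb1 by -0.75, Cd44 by -1.25 and Itga6 by -1.04. With the code as a covariate the log2 differences were 1.41, 1.03, -0.87, -0.71, -1.13 and -0.87, and of these Itgb1 alone was called.

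**Figure D3:**
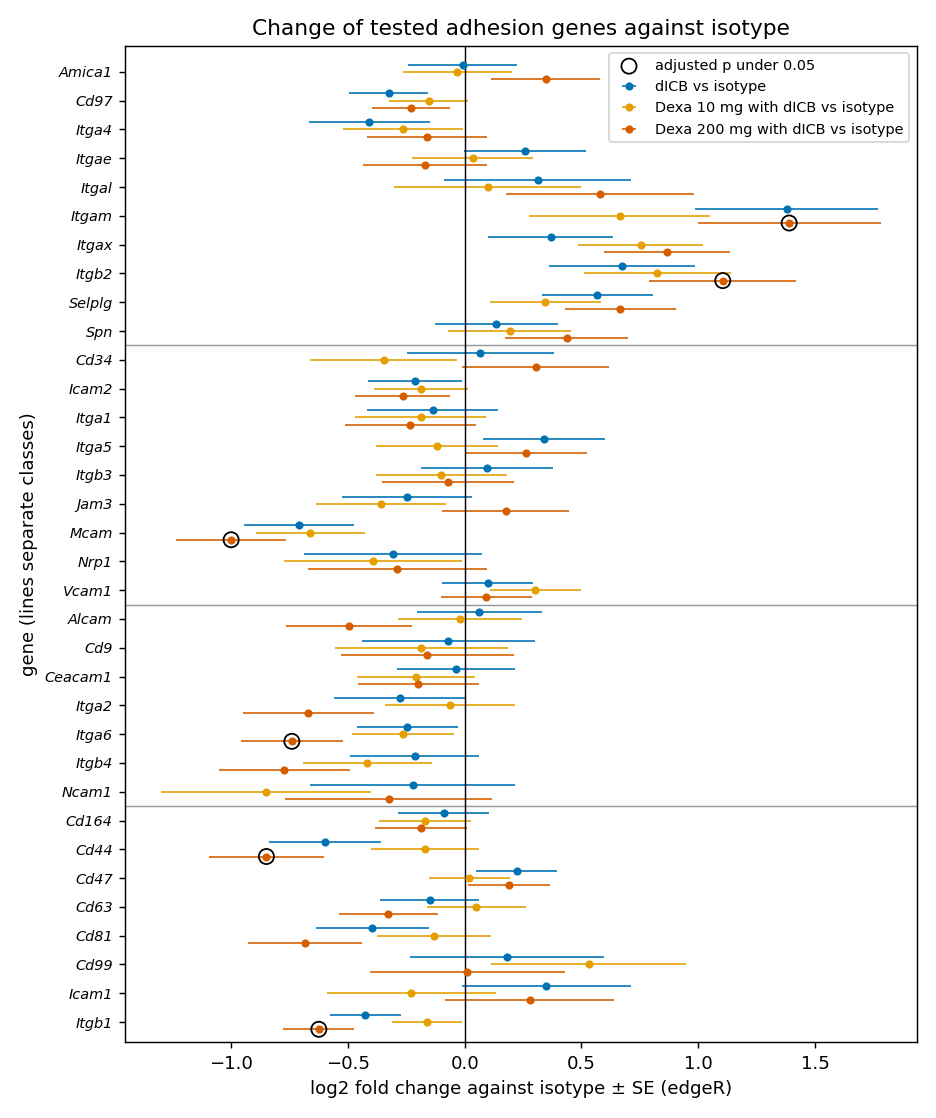
Log2 fold change against isotype (horizontal axis, ± SE, edgeR) of 34 tested adhesion genes (vertical axis, grouped by class) for dICB, dICB with Dexa 10 mg and dICB with Dexa 200 mg; rings mark adjusted p under 0.05. The 6 rings all belong to Dexa 200 mg, with Itgam at 1.39 and Mcam at -1.001.

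The 9 samples given dICB, with or without Dexa, were also set against the 3 isotype samples; all comparisons with isotype use the same 3 isotype samples and are not independent of each other. Mcam was the 1 adhesion gene called of 35 (2.86%, against 7.56% of all tested genes), and 8 reached an unadjusted p under 0.05 (22.9%, against 24.9%). It fell to 0.578 of its isotype level (log2 -0.79 ± 0.18 SE, edgeR adjusted p = 0.0332), and without isotype replicate 1 its log2 difference was -0.50 and was not called. Itgam (log2 1.14 ± 0.34 SE, edgeR adjusted p = 0.0547), Itgb1 (-0.40 ± 0.12 SE, 0.0565), Itgb2 (0.87 ± 0.27 SE, 0.0663) and Itgax (0.66 ± 0.23 SE, 0.102) missed the threshold. For Itgam, Itgax and Itgb1, or 8.57% of the tested adhesion genes, the treated and isotype samples did not overlap, as for 4.72% of all tested genes. The nearest isotype and treated samples were at 146 and 149 for Itgam, 105 and 106 for Itgax, and 3575 and 3488 for Itgb1. Under housekeeping scaling Itgb1 showed no lower value (log2 0.00). With that scaling 4 of 35 adhesion genes were called higher and 0 lower, beside 82 higher and 1 lower among all 635 tested genes.

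Within code ICI7 (3 treated samples), the log2 difference from isotype was -0.75 for Mcam, 1.08 for Itgam, -0.49 for Itgb1, 0.91 for Itgb2 and 0.51 for Itgax. The count of calls without 1 sample ran from 0 to 3. It was 0 without Dexa 10 mg replicate 1, without Dexa 200 mg replicate 2 or 3 and without isotype replicate 2 or 3, 2 without isotype replicate 1, dICB replicate 1 or Dexa 10 mg replicate 2, and 3 without dICB replicate 3.

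For dICB alone against isotype, which asks what the antibodies changed without Dexa, 0 of 35 adhesion genes passed the adjusted threshold, as did 0 of all 635 tested genes (0%). At an unadjusted p under 0.05 there were 6 (17.1%, against 20% of all tested genes), and DESeq2 called 1, Itgam. Itgam was 2.60-fold higher in value (log2 1.38 ± 0.39 SE, edgeR adjusted p = 0.105), from 117 ± 26.4 to 304 ± 202 (SD, n = 3 each). This value rested in large part on replicate 1, the sample with the high neutrophil markers, and was 0.69 on the log2 scale without it.

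Mcam (log2 -0.71 ± 0.24 SE, edgeR adjusted p = 0.137), Itgb1 (-0.43 ± 0.15 SE, 0.158), Cd44 (-0.60 ± 0.24 SE, 0.181) and Cd97 (-0.33 ± 0.17 SE, 0.298) were lower in all 3 dICB samples than in all 3 isotype samples. Without isotype replicate 1 the Mcam difference was -0.42. For Cd97 the dICB samples were close together, at 215, 214 and 212, against 252, 269 and 282 in isotype. Selplg (log2 0.57 ± 0.24 SE, edgeR adjusted p = 0.196) was higher in mean. Icam1, the endothelial and tumour ligand of the Itgb2 pairs, measured 452, 524 and 493 in isotype and 609, 547 and 718 with dICB, without overlap (log2 0.35 ± 0.36 SE, edgeR adjusted p = 0.625). Groups did not overlap for 7 of 35 adhesion genes and 22.7% of all tested genes. Under housekeeping scaling the lower value of Itgb1 turned to a log2 difference of 0.01.

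With dICB and Dexa 10 mg against isotype, 0 of 35 adhesion genes passed the adjusted threshold by edgeR or by DESeq2, with 3 at an unadjusted p under 0.05 (8.57%, against 8.35% of all tested genes and 0% called). The 3 were Itgax (log2 0.75 ± 0.27 SE), Itgb2 (0.83 ± 0.31 SE) and Mcam (-0.66 ± 0.23 SE), each at an edgeR adjusted p of 0.499. Without isotype replicate 1 the Mcam difference was -0.37. Itgam had a log2 difference of 0.66 ± 0.39 SE, with all 3 treated samples above isotype. Ncam1, the neural cell adhesion molecule, measured 47.9, 34.6 and 23.5 in isotype and 21.1, 22.3 and 15.7 here (log2 -0.85 ± 0.45 SE, edgeR adjusted p = 0.662). Without isotype replicate 1 the Ncam1 difference was -0.56, and Ncam1 exceeded the background limit in 5 of 12 samples. Groups did not overlap for 11.4% of the adhesion genes and 13.1% of all tested genes.

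Whether Dexa changed adhesion genes under dICB was asked by setting each dose against dICB alone, and the doses against each other; these comparisons share samples. For Dexa 10 mg against dICB, 0 of 35 were called by edgeR or DESeq2 and 0 reached an unadjusted p under 0.05 (9.45% of all tested genes did, and 0% were called). The smallest adjusted p was 0.604, for Itgam (log2 -0.72 ± 0.38 SE). Without dICB replicate 1, the log2 difference of Itgam was 0.01. Cd44 (log2 0.43 ± 0.24 SE), Itga5 (-0.46 ± 0.26 SE) and Itgb1 (0.26 ± 0.15 SE) had the next smallest p, with an edgeR adjusted p of 0.627 each; that of Itga5 was -0.20 without dICB replicate 1. Groups did not overlap for 1 of 35, Cd97, and 7.87% of all tested genes.

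For Dexa 200 mg against dICB, 0 of 35 were called by edgeR or DESeq2 and 1 reached an unadjusted p under 0.05 (2.86%, against 8.50% of all tested genes and 0% called). It was Itga6 (log2 -0.50 ± 0.22 SE, edgeR adjusted p = 0.538), at -0.29 without dICB replicate 3. Alcam had a log2 difference of -0.56 ± 0.27 SE, which was -0.14 without dICB replicate 3. Itgb4 (-0.56 ± 0.28 SE), Itgax (0.50 ± 0.27 SE) and Itgae (-0.43 ± 0.26 SE) followed, with adjusted p of 0.580, 0.595 and 0.595. Without dICB replicate 3 the difference was -0.35 for Itgb4 and -0.20 for Itgae, and that of Itgb4 was also -0.35 without Dexa 200 mg replicate 3. For Itgax it was 0.22 without Dexa 200 mg replicate 2 and 0.76 without dICB replicate 2. By value, 7 of 7 epithelial genes (6 of 7 under housekeeping scaling) and 8 of 8 broadly expressed genes (6 of 8) were lower and 9 of 11 leukocyte genes were higher, none of them called; of all tested genes 53.1% were lower and 46.9% higher. Among the lower genes, Ceacam1, Ncam1 and Cd44 exceeded the background limit in only 1, 5 and 6 of 12 samples, so that their direction is uncertain. Groups did not overlap for 4 of 35 adhesion genes (11.4%) and 8.82% of all tested genes.

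Between the doses, 0 of 35 were called by edgeR or DESeq2 and 4 reached an unadjusted p under 0.05, all lower at 200 mg (11.4%, against 12% of all tested genes and 0% called). They were Itgb1 (log2 -0.46 ± 0.15 SE, edgeR adjusted p = 0.299), Cd44 (-0.68 ± 0.25 SE, 0.299), Cd81 (-0.55 ± 0.24 SE, 0.393) and Itga6 (-0.48 ± 0.22 SE, 0.408). Itga2 gave -0.61 ± 0.28 SE and Itgam 0.73 ± 0.38 SE, at adjusted p of 0.408 and 0.453, with every 200 mg sample below (Itga2) or above (Itgam) every 10 mg sample. Groups did not overlap for 28.6% of the adhesion genes and 21.7% of all tested genes. Within code ICI7 (2 samples at 10 mg and 1 at 200 mg) the log2 differences of Itgb1 and Itgam were -0.53 and 1.14, and within ICI10 (1 and 2 samples) -0.49 and 0.31.

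Over the 4 groups at once, 0 adhesion genes passed an adjusted p of 0.05 in the edgeR test of any difference (0.787% of all tested genes did). At an unadjusted p under 0.05 there were 7 (against 21.7% of all tested genes), and DESeq2 called 3, Itgam, Itgb1 and Mcam. The smallest edgeR adjusted p were 0.0818 for Mcam, 0.0832 for Itgb1, 0.107 for Itgam, 0.123 for Cd44 and 0.172 for Itgb2.

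The samples that stood apart did so for several adhesion genes. Dexa 10 mg replicate 2 gave the lowest value of all 12 samples for 10 of 35 adhesion genes (28.6%, against 21.1% of all tested genes). Icam1 was at 155 there, with the next lowest sample at 452, and Itgal at 68.9 with the next at 161. Cd9, a tetraspanin of epithelia and platelets, was at 472 with the next at 913, and Nrp1 at 94.0 with the next at 168. The same sample gave the highest Cd99, a leukocyte and endothelial molecule of transmigration, at 1441 against 654 in the next sample. These values sit inside the group means of Dexa 10 mg, for example 418 ± 228 for Icam1 and 745 ± 603 for Cd99 (SD, n = 3), against 490.0 ± 36.2 and 515 ± 110 in isotype. The 200 mg group's replicate 3 held the lowest value for 7 of 35 adhesion genes, against 12.3% of all tested genes.

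**Figure D4:**
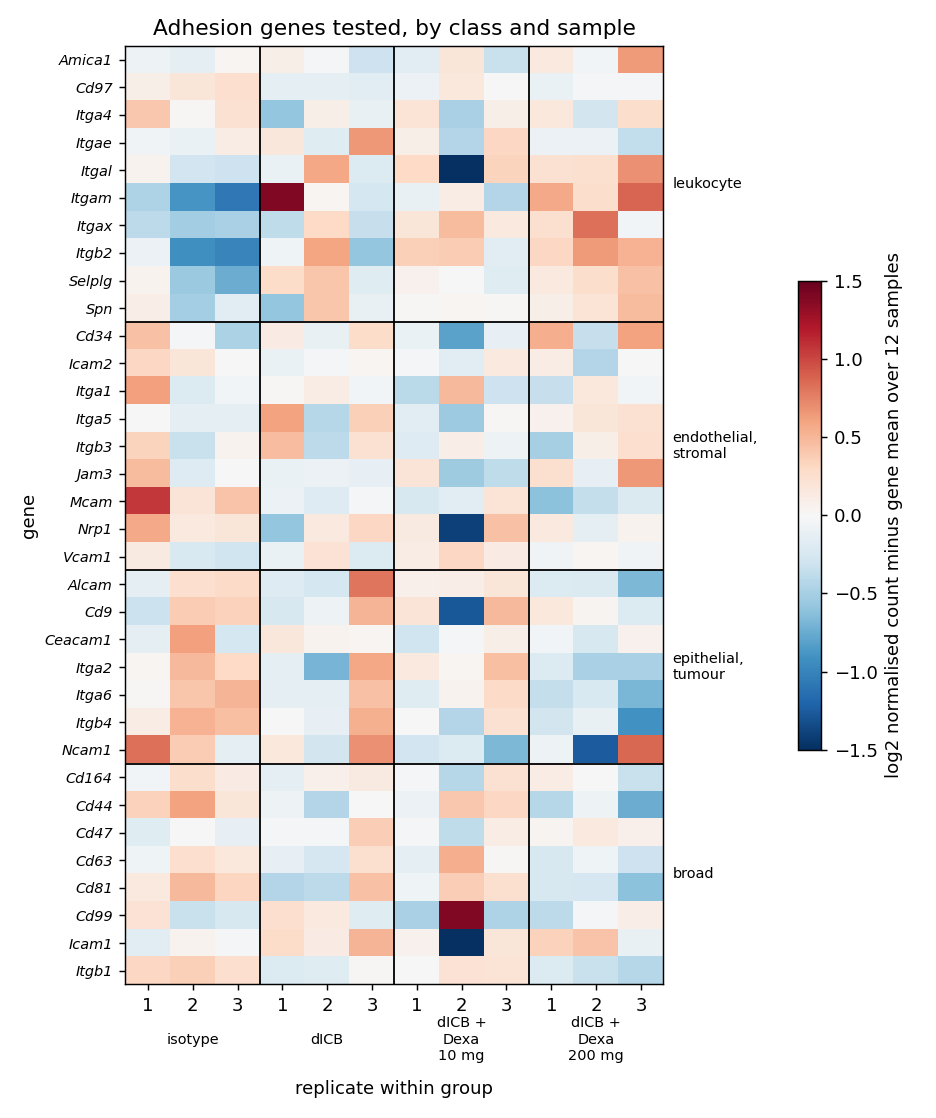
Log2 normalised count minus the gene's mean over 12 samples (colour, from -1.5 to 1.5) for 34 tested adhesion genes (rows, by class) in each sample (columns, by group and replicate). Itgam is highest in dICB replicate 1, and Icam1 and Itgal are lowest in Dexa 10 mg replicate 2.

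Of the remaining genes, those tested gave no call by edgeR under TMM scaling. Cd164, a sialomucin of progenitors, measured 1118 ± 115 in isotype, 1049 ± 100.2 with dICB, 994 ± 224 with Dexa 10 mg and 982 ± 151 with Dexa 200 mg (SD, n = 3 each). Cd47 measured 880.3 ± 57.7, 1028 ± 168, 893 ± 150.4 and 1003.5 ± 35.8 in the same order. Itgae, above the background limit in 10 of 12 samples, kept within 26.1 to 58.1 normalised counts, and Itga4 within 109.6 to 219.6. Jam3, a junctional molecule of endothelium, and Ceacam1, of epithelia and T cells, exceeded the limit in 4 and 1 of 12 samples and their differences were not read further. Sele, the selectin of activated endothelium, Icam4 of red cells and Itga2b of platelets exceeded it in 0 of 12 samples, at 7.3 to 13.8, 5.2 to 22.4 and 9.9 to 26.7 normalised counts, so that no change was detectable at this depth.

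A score for each class, the mean over its tested genes of log2 values centred on each gene, describes the samples without a test. The leukocyte score was -0.09, -0.40 and -0.31 in isotype, 0.17, 0.15 and -0.17 with dICB, 0.03, -0.08 and -0.06 with Dexa 10 mg, and 0.13, 0.20 and 0.42 with Dexa 200 mg. Leukocyte minus epithelial score was -0.14, -0.83 and -0.52 in isotype, 0.22, 0.37 and -0.68 with dICB, 0.08, 0.17 and -0.21 with Dexa 10 mg, and 0.28, 0.56 and 0.71 with Dexa 200 mg. The 200 mg samples lay above the isotype samples in both measures, and dICB replicate 3 lay among the isotype samples. Leukocyte minus endothelial and stromal score was -0.53, -0.33 and -0.28 in isotype and 0.18, 0.31 and 0.26 with Dexa 200 mg; under dICB it was 0.15, 0.24 and -0.26, and under Dexa 10 mg 0.11, 0.22 and -0.06. A scale factor common to a sample cancels in such a difference, apart from the prior of 2 added before the log.

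**Figure D5:**
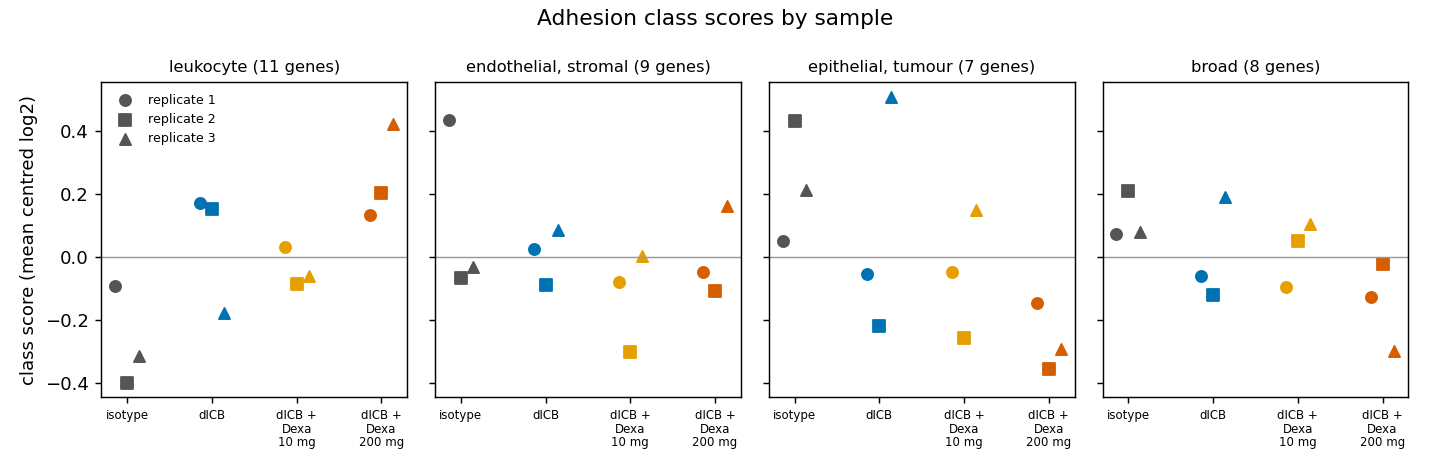
Class score (vertical axis, mean of gene-centred log2 normalised counts) of the 4 classes of adhesion genes in each sample, by group (horizontal axis); symbols mark replicates. The leukocyte score is above 0 in the 3 samples given Dexa 200 mg (0.13 to 0.42) and below 0 in the 3 isotype samples (-0.40 to -0.09).

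Genes that work with adhesion receptors were described from 4 further lists. Of 12 tested genes of integrin signalling and activation, 12 were higher in value with Dexa 200 mg than in isotype and 4 rose: Lcp1, an actin-bundling protein of leukocytes (log2 0.84 ± 0.17 SE, edgeR adjusted p = 0.0127), the kinases Btk (1.05 ± 0.23 SE, 0.0171) and Syk (0.98 ± 0.23 SE, 0.0184), and the kinase Prkcd (0.75 ± 0.22 SE, 0.0383). Of all tested genes 51.7% were higher in value in that comparison and 13.2% were called. Over all dICB-treated samples, 2 of the 12 rose, Lcp1 (0.64 ± 0.14 SE, 0.0332) and Syk (0.75 ± 0.20 SE, 0.0405), against 7.56% of all tested genes called. Of 11 other adhesion receptors 1 was called, Epcam, the epithelial adhesion molecule, which fell both with Dexa 200 mg (log2 -0.84 ± 0.23 SE, edgeR adjusted p = 0.0302) and over all treated samples (-0.65 ± 0.18 SE, 0.0437). Of 9 ligands in matrix and blood 0 were called against isotype, with 2 at an unadjusted p under 0.05 for Dexa 200 mg (32.3% of all tested genes), and the smallest adjusted p there was 0.0669. Of 11 inducers of endothelial adhesion molecules 0 were called; Il1b and Il1a, which drive such genes in inflamed vessels, had log2 differences of 3.64 ± 1.02 SE and 3.06 ± 0.88 SE for dICB against isotype (edgeR adjusted p = 0.105 each). Il1b was at 3386 normalised counts in dICB replicate 1 and at 148 and 106 in the other dICB samples, against 71.7 to 125 in isotype. In the other 5 comparisons between groups, no gene of these 4 lists was called.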

How the data were processed

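The authors deposited whole-number counts per probe, not normalised and with no background subtracted as far as the values show, for 770 genes, 6 positive and 8 negative controls. Per the labels' protocols, total RNA came from paraffin-embedded tumours. No counting instrument, panel or software was given in the sources used here.

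Counts were tested as deposited in R 4.3.3 with edgeR 4.0.16 (TMM, quasi-likelihood test, 1 mean per group over all 12 samples), for genes averaging 20 counts or more, with Benjamini-Hochberg adjustment over all 635 genes tested at 0.05. The residual degrees of freedom were 8 and the common coefficient of variation 28.3%. Normalised counts are TMM-scaled to the mean effective library. Alternatives used limma 3.58.1 on background-subtracted values, DESeq2 1.42.0, housekeeping scaling, other filters, the sample code and omission of samples. The test was checked on simulated counts. Total counts of 252994 to 428944 limit the precision of low genes. Counting error alone was smaller than the spread between samples of a group (chi-square per degree of freedom at least 4.05). The value of 4.05 was that of isotype replicates 2 and 3, and all other pairs within groups gave 15.1 to 94.6. Why isotype replicates 2 and 3 were closer was not tested.

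Named in each comparison were the 5 adhesion genes of smallest p and those whose groups did not overlap with at least a 1.5-fold difference, plus up to 3 genes of each further list by the test of any difference; Prkcd was added after its values were seen, as were the genes set out for 1 sample. The genes, classes and lists were chosen with earlier results of these data known. Same-numbered replicates did not deviate together (correlations -0.39 to 0.29), so the numbers were not used as pairs. Amica1 (Jaml) and Cd97 (Adgre5) matched the mouse gene table as synonyms; names are printed as deposited. The values of 1 adhesion gene are not reported here, although it is in the counts and class scores.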

Additional observations from a re-analysis of the deposited data

How the results depend on the processing

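Counts of adhesion genes called against isotype varied with the settings. For dICB with Dexa 200 mg (6 called), limma on background-subtracted values gave 1 and the sample code as a covariate gave 1, while 10 were called without both samples that stood apart, 11 when only the groups compared were fitted and 10 within code ICI7; without 1 sample the count ran from 0 to 6. Over all genes that comparison gave 84 calls, 37 with limma, 29 with the code, 181 with only the groups compared, 169 without both samples that stood apart, 148 within ICI7, and 166 with housekeeping scaling. For all dICB-treated samples (1 called), limma and the code gave 0 each, DESeq2 5, housekeeping scaling 4, total counts without TMM 2, without both samples that stood apart 2, within ICI7 5, and without 1 sample 0 to 3. For dICB against isotype (0), DESeq2 gave 1, housekeeping scaling 2 (and 45 of all tested genes, all higher) and omission of 1 sample 0 to 1. Between doses (0), within ICI7 gave 1. The test of any difference (0) gave 3 with DESeq2, 1 without both samples that stood apart, 2 within ICI7 and 0 to 1 without 1 sample. The other 3 comparisons gave 0 under all settings. Within ICI7 the Dexa 200 mg arm is 1 sample, assumed to vary like the other groups. With the replicate block the counts were 6 for Dexa 200 mg against isotype, 1 for all treated and 0 elsewhere. Values that turned were those of Itgam for Dexa 10 mg against dICB without dICB replicate 1 (log2 0.0122), and Itgb1 with housekeeping scaling over all treated (0.0036) and for dICB (0.0124). Without dICB replicate 3 that value of Itgam was -0.999, in the same direction as with all samples. Of 717 values of named genes under alternatives, 618 kept direction and side of the threshold, 36 newly passed it, 60 kept direction but no longer passed it, and 3 turned. Omitting both samples and dropping TMM were chosen after seeing the data; the cause of these changes was not tested, beyond the smaller number of samples where samples were left out. Background counts limit Cd44, Ncam1, Jam3 and Ceacam1.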
